A study of Homo sapiens with 8 samples.

Results

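The genes examined here were 5 CXC chemokines that do not mainly attract neutrophils, CXCL10, CXCL11, CXCL12, CXCL14 and CXCL16, together with ACKR3, an atypical chemokine receptor. They were taken by gene symbol, and all 6 were found among the 27696 genes of the count table. Normal IMR90 fibroblasts, a human lung fibroblast strain, had been given, for 3 days, medium taken from IMR90 ER:RAS fibroblasts, in which 4-OHT (4-hydroxy-tamoxifen) switches on a RAS oncogene fused to the estrogen receptor and so induces senescence. The medium had been collected at day 0, 4, 7 or 10 of induction, and each recipient group is called by that day (D0, D4, D7, D10). D0, which received medium from day 0 of induction, was the control. There were 2 libraries per group, from 2 independent experiments, and all recipients were cells of the same strain. RNA was measured in these recipient cells and not in the ER:RAS cells that made the medium.

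Total counts of the 8 libraries ranged from 11708193 to 13395912. All 10 fibroblast markers checked were detected. Their summed level was between 30350 and 46800 CPM (counts relative to the library total, scaled by edgeR's TMM method) in 7 libraries and 10120 CPM in D10 replicate 2. Much of this sum was the collagen genes COL1A1 and COL1A2, named after their values were seen. They were at 9422 and 12370 CPM in D10 replicate 1, and at 1293 and 2858 CPM in D10 replicate 2. The lower sum there was thus in large part lower collagen RNA. The 7 leukocyte markers examined summed to between 1.89 and 4.10 CPM, and 5 of them did not exceed 10 counts in any library. The 5 epithelial markers summed to between 4.25 and 10.3 CPM, and the 6 endothelial markers to between 42.5 and 122 CPM. Most of the endothelial sum was TEK, named after its values were seen, with between 40.3 and 120 CPM. Bulk RNA cannot tell fewer cells with a transcript from less transcript per cell.

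Chemokines are small secreted proteins that steer cells along a concentration gradient through receptors coupled to G proteins. CXCL10 and CXCL11 are ligands of CXCR3, found on activated T and NK cells, and are classically induced by interferons, with NF-κB acting on the same promoters. CXCL12, the ligand of CXCR4, and CXCL14 are made constitutively in many tissues and are called homeostatic. CXCL16 is a transmembrane chemokine that binds CXCR6 and can be shed from the cell surface. ACKR3 takes up CXCL11 and CXCL12 without classical G protein signalling. In senescence, such factors belong to the secretory phenotype (SASP) through which arrested cells reach their neighbours and immune cells.

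The promoter sequences of CXCL10, CXCL11 and CXCL12 are shown as a description, and a link from them to the RNA levels was not tested. The letters searched were the core of the interferon-stimulated response element (ISRE), which is GAAA, any 2 bases and GAAA again, and the NF-κB consensus, each on both strands and in the 250 bases before the RefSeq start (GRCh38.p14). In these genes no match of one motif overlapped a match of another. The RefSeq starts of CXCL11, CXCL12 and CXCL14 lie inside the longer GENCODE 29 spans given for these genes further on. All 250 bases searched for CXCL14, and 127 of those for CXCL11, lie in GENCODE exons of the gene itself. The table used holds such bases for 4 of the 6 genes. Over all 35116 promoters, the ISRE core occurred in 3.02% and the NF-κB consensus in 9.96%. Capitals mark matches to the ISRE core or the NF-κB consensus.
CXCL10, chr4:76023498-76023747, minus strand, 250 bases: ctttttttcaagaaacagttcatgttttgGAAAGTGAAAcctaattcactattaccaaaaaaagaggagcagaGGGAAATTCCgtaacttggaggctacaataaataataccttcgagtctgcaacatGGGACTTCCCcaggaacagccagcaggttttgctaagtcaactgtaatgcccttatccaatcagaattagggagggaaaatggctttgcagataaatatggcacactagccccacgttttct
CXCL11, chr4:76036127-76036156, minus strand, 30 bases around its match: gactcaaagaGGGAAATTCCtgtgccataa
CXCL12, chr10:44385098-44385347, minus strand, 250 bases: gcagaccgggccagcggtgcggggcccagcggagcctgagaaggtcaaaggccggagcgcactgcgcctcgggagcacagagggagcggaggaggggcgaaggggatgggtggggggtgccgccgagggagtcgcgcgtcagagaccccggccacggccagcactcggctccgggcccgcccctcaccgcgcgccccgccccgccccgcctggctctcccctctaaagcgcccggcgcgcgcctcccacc
CXCL10 held 1 match to the ISRE core, from base -221 to base -212 before its start, and 2 matches to the NF-κB consensus, from -177 to -168 and from -122 to -113. CXCL11 held 1 NF-κB match, from -76 to -67. Neither CXCL12 nor CXCL14 held a match to either motif. The bases shown were 40.8% G or C for CXCL10 and 78.0% for CXCL12. A match describes the letters only, and no factor was measured at these sites.

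CXCL10 (ENSG00000169245.5, chromosome 4 from 76021117 to 76023497 on the minus strand) rose late. In experiment 1 its counts on the 4 days were 21, 18, 100 and 569, and in experiment 2 they were 19, 21, 44 and 348. The D0 and D4 libraries were indistinguishable, whereas both D7 libraries exceeded every D0 and D4 library and both D10 libraries exceeded every D7 library. As levels, these were 1.57 ± 0.266, 1.48 ± 0.119, 5.48 ± 3.04 and 36.2 ± 12.4 CPM (SD, n = 2) at D0, D4, D7 and D10. CXCL10 moved from a level above 12.3% of the genes tested at D0 to one above 62.6% of them at D10. No exon of another gene overlaps its exons.

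Against D0, CXCL10 was 23.0-fold higher at D10, or 4.52 on the log2 scale with a standard error of 0.49, and passed edgeR's quasi-likelihood test (Benjamini-Hochberg adjusted p = 0.0181 over 13798 genes). It was the only one of the 4 members that passed the filter on low counts to be called at D10, in a comparison in which 0.290% of all genes were called and 0.196% were called higher. Within the experiments its CPM rose 25.6-fold and 19.8-fold. Leaving out D10 replicate 1 gave 4.14 on the log2 scale, and leaving out D10 replicate 2 gave 4.84. The call was lost without D0 replicate 1 (adjusted p = 0.128 from the same edgeR test) and without D0 replicate 2 (0.218), and when D0 and D10 alone were fitted (0.0711).

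At D7 the log2 fold change of CXCL10 was 1.80 ± 0.47 (SE), and its adjusted p of 0.512 from edgeR did not pass the threshold. With the experiment as a replicate block, edgeR gave 1.74 at D7 with an adjusted p of 0.0469, where 1.25% of all genes were called and 0.507% were called higher. The log2 fold change at D7 was 1.09 without D7 replicate 1 and 2.28 without D7 replicate 2. The step from D4 to D7 was 5.47-fold in experiment 1 and 2.13-fold in experiment 2, and the step from D7 to D10 was 5.90-fold and 8.21-fold. At D4 the log2 fold change was -0.08 (adjusted p = 1 from edgeR), and it was 0.10 without D0 replicate 1.

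**Figure D1:**
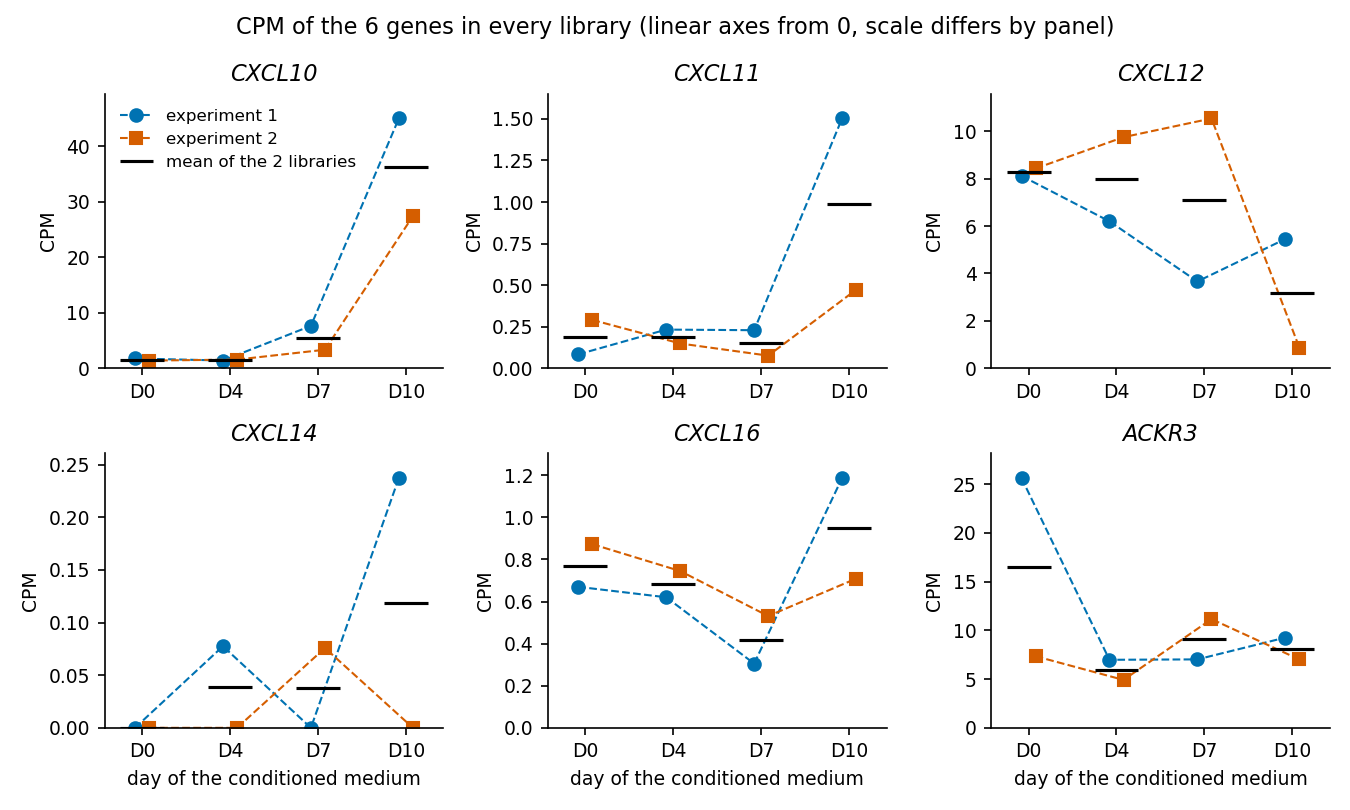
CPM (vertical axis, linear from 0, with a scale of its own in each panel) of the 6 genes in the recipients of medium from each day (horizontal axis), with experiment 1 as blue circles, experiment 2 as orange squares and the mean of the 2 libraries as a black bar. CXCL10 reached 45.0 and 27.4 CPM at D10, while CXCL12 and ACKR3 took different courses in the 2 experiments.

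CXCL11 (ENSG00000169248.12, chromosome 4 from 76033682 to 76041415 on the minus strand), the CXCR3 ligand encoded 10184 bases from CXCL10, was close to the limit of detection. Experiment 1 gave 1, 3, 3 and 19 counts from D0 to D10, and experiment 2 gave 4, 2, 1 and 6. Both D10 libraries were above all others, but 19 of the 25 counts at D10 came from 1 library. The pooled counts gave a ratio of D10 to D0 of 5.07, with a 95% exact interval from 1.91 to 16.96 that covers counting error only. It did not pass the filter on low counts and so has no p in that fit, and with no filter edgeR gave an adjusted p of 0.433. Within the experiments the CPM ratio was 17.95 and 1.63.

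CXCL12 (ENSG00000107562.16, chromosome 10 from 44370165 to 44386493 on the minus strand), also known as SDF-1, did not pass the test on any day. Its counts in experiment 1 were 97, 80, 48 and 69 from D0 to D10, and in experiment 2 they were 116, 131, 139 and 11. Both D10 libraries lay below both D0 libraries, and D10 replicate 2 was the lowest of the 8. The mean level was 8.28 ± 0.221 CPM at D0 and 3.16 ± 3.25 CPM at D10 (SD, n = 2), a log2 fold change of -1.39 ± 0.77 (SE, adjusted p = 0.835 from edgeR, 0.364 with the replicate block).

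The size of that difference rested on 1 library. In experiment 1 CXCL12 was 1.49-fold lower at D10 than at D0, and in experiment 2 it was 9.73-fold lower. Leaving out D10 replicate 2 gave -0.60 on the log2 scale, and leaving out D10 replicate 1 gave -3.22. D10 replicate 2 was also the library with the lowest sum of fibroblast markers, much of it collagen RNA. The sum was 10120 CPM there and 34700 CPM in D10 replicate 1, and the part of this in the CXCL12 value was not tested. At D7 the experiments went opposite ways, with log2 changes of -1.12 and 0.32, and the fitted value was -0.22 ± 0.74 (SE).

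CXCL14 (ENSG00000145824.12, chromosome 5 from 135570679 to 135579279 on the minus strand), the other homeostatic chemokine, was not detectable at this depth. It had 0 counts in 5 libraries and 1, 1 and 3 in D4 replicate 1, D7 replicate 2 and D10 replicate 1. A count of 0 allows up to 3 counts, which is between 0.218 and 0.251 CPM in these libraries, so no fold change is given. Of its exon bases, 4.81% are shared with genes transcribed the other way.

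CXCL16 (ENSG00000161921.14, chromosome 17 from 4733526 to 4739922 on the minus strand) was expressed at a low level throughout. From D0 to D10 it had 8, 8, 4 and 15 counts in experiment 1 and 12, 10, 7 and 9 in experiment 2. The D7 libraries were below both D0 libraries, with a log2 fold change of -0.87 ± 0.58 (SE, adjusted p = 1 from edgeR), and the D10 libraries overlapped those of D0, with 0.29 ± 0.53 (SE, adjusted p = 0.998). Without D10 replicate 1 the D10 value was -0.11. MED11, transcribed the other way, shares 3.04% of its exon bases.

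ACKR3 (ENSG00000144476.5, chromosome 2 from 236567787 to 236582358 on the plus strand), the receptor of the set, differed most between the D0 libraries themselves. In order of day its counts were 306, 90, 92 and 117 in experiment 1 and 101, 66, 147 and 89 in experiment 2. Both D4 libraries were below both D0 libraries, while D7 and D10 overlapped D0. The log2 fold change was -1.47 at D4 (SE 0.56, adjusted p = 1 from edgeR), -0.86 at D7 and -1.02 at D10 (standard error 0.55 at both, adjusted p = 1 and 0.827). D0 replicate 1 decided these values. Without it they were -0.30, 0.30 and 0.15, and without D0 replicate 2 they were -2.11, -1.50 and -1.66. In experiment 1 ACKR3 was 2.77-fold lower at D10 than at D0, and in experiment 2 it was 1.05-fold lower.

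**Figure D2:**
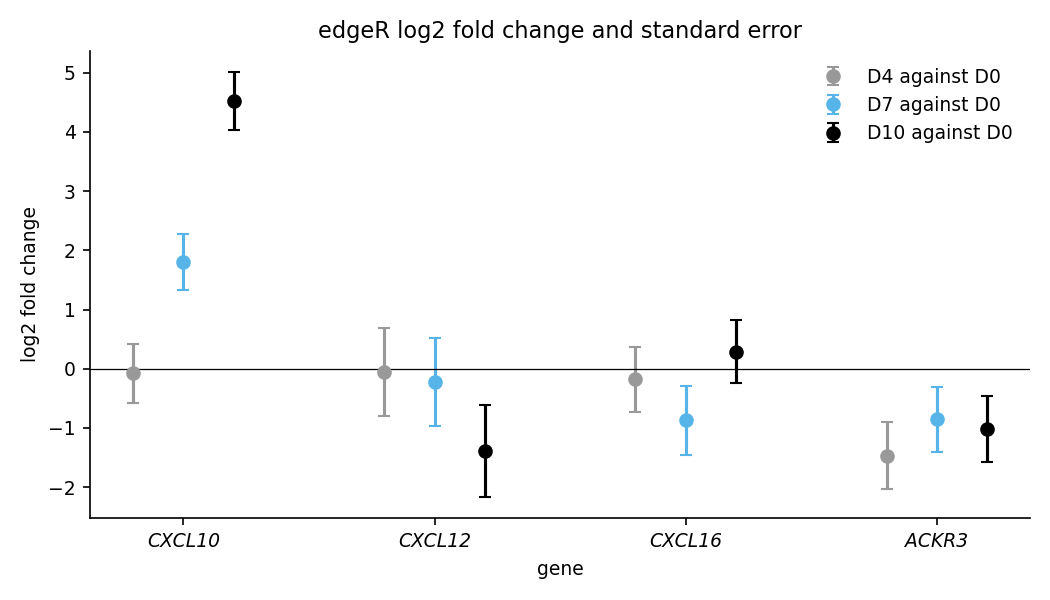
Log2 fold change against D0 (vertical axis) with its standard error (bars) from edgeR for the 4 members that passed the filter (horizontal axis), at D4 in grey, D7 in blue and D10 in black. CXCL10 stood at 4.52 at D10, and the D10 values of CXCL12, CXCL16 and ACKR3 were -1.39, 0.29 and -1.02, none past the threshold.

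Over the 4 members tested, 0 were called at D4 and 0 at D7 by edgeR, against 0 of all 13798 genes on either day. At an unadjusted p under 0.05 there was 1 member on each of these days, ACKR3 at D4 and CXCL10 at D7, and 409 and 599 genes in all. DESeq2 called 0 members on both days, against 0.287% and 0.785% of the genes it tested, and called CXCL10 at D10, against 2.17%. The replicate block called 0 members at D4, against 0.275% of all genes, and CXCL10 at D7 and at D10, where 4.99% were called. Libraries of the groups did not overlap for 1 member at D4, 2 at D7 and 2 at D10, where this held for 22.3%, 28.9% and 31.0% of all genes tested. The median log2 fold change of the 4 members was -0.36 at D10 and 0.00374 over all genes.

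The question set for the group was how interferon-type and homeostatic chemokines compare. Levels of different genes are compared per kb of exon, as CPM per kb, since CXCL12 has 6.077 kb of annotated exon and CXCL10 has 1.176 kb. These lengths join the exons of all annotated transcripts, 8 for CXCL12 and 1 for CXCL10, so the order of genes depends on them. At D0 the order was ACKR3 with 7.30 ± 5.72, CXCL12 with 1.36 ± 0.0364, CXCL10 with 1.33 ± 0.227, CXCL16 with 0.276 ± 0.0513 and CXCL11 with 0.0981 ± 0.0767 CPM per kb (SD, n = 2). CXCL12 and CXCL10 did not differ beyond their spread there. At D10 CXCL10 was first with 30.8 ± 10.6, followed by ACKR3 with 3.60 ± 0.703, CXCL12 with 0.520 ± 0.534, CXCL11 with 0.518 ± 0.382 and CXCL16 with 0.339 ± 0.121 CPM per kb. The libraries of the last 3 overlapped one another at D10.

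The ratio of CXCL10 to CXCL12 per kb was 1.12, 1.16, 10.8 and 42.6 from D0 to D10 in experiment 1, and 0.846, 0.828, 1.64 and 164 in experiment 2. By these lengths both genes were at a similar level per kb up to D4. CXCL10 was then the higher one in both libraries at D7 and at D10. In CPM without the length, CXCL12 was the higher one at D0 (8.28 against 1.57 CPM) and at D4 (7.98 against 1.48 CPM). It was also the higher one in D7 replicate 2 (10.5 against 3.34 CPM). CXCL10 was the higher one in both D10 libraries on either scale. The mean log2 CPM of CXCL10 and CXCL11 less that of CXCL12 and CXCL14 was -0.74, -0.65, 1.17 and 2.55 from D0 to D10 in experiment 1, and -0.48, -0.78, -0.81 and 3.39 in experiment 2. This difference shifted by 3.58 from D0 to D10. Since CXCL11 and CXCL14 are at or near the floor, their log values depend on the prior count of 2 that was added. Members were chosen with earlier results known, and with 2 libraries a group an exact permutation test could not pass 0.05, so these ratios carry no test.

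**Figure D3:**
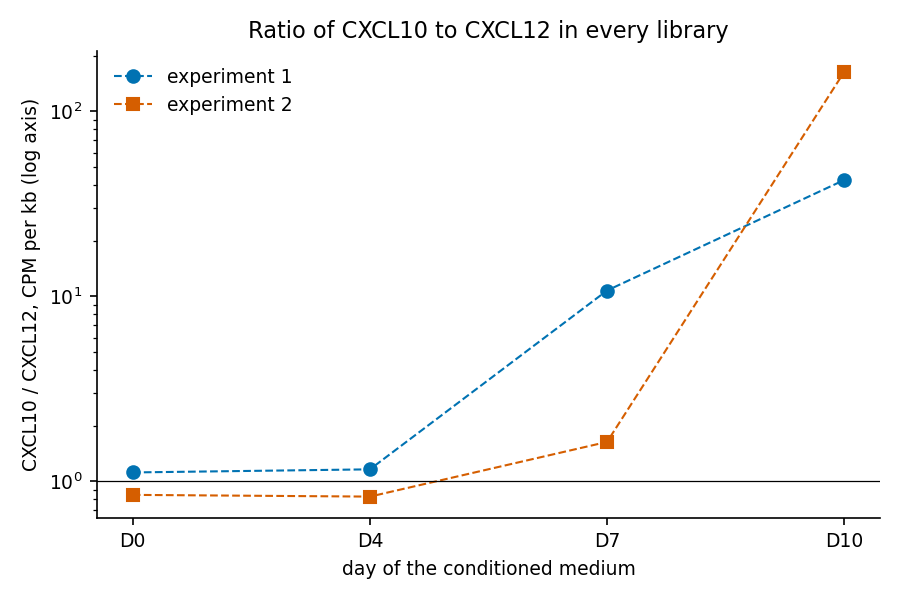
Ratio of CXCL10 to CXCL12 in CPM per kb of exon (vertical axis, logarithmic) in each library by day of the medium (horizontal axis), with experiment 1 as blue circles, experiment 2 as orange squares, dashed lines joining the days of 1 experiment and a line at a ratio of 1. The ratio lies between 0.828 and 1.16 in the D0 and D4 libraries and reaches 42.6 and 164 at D10.

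CXCR3 and CXCR4, the signalling receptors of CXCL10, CXCL11 and CXCL12, were at the limit of detection in the fibroblasts, unlike the atypical receptor ACKR3. CXCR3 had 1 count over all 8 libraries together and CXCR4 had 3, both named after their values were seen. Of the list of receptors, processing enzymes and receptor-coupled proteins, 12 genes were tested and 0 were called on any day by edgeR or with the replicate block. Over all genes, edgeR called 0, 0 and 0.290% at D4, D7 and D10, and the replicate block 0.275%, 1.25% and 4.99%. For 12 genes, 0 calls is close to these shares. The largest D10 values were those of ARRB2, an arrestin, with a log2 fold change of 0.94 ± 0.36 (SE, adjusted p = 0.494 from edgeR), and GRK5, a kinase of G protein-coupled receptors, with 0.77 ± 0.24 (SE, adjusted p = 0.335).

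Of 16 tested genes for interferon receptors, kinases, transcription factors and feedback, edgeR called 0 on any day. Over all genes it called 0 at D4, 0 at D7 and 0.290% at D10, so 0 of 16 is close to that share. With the replicate block 1 was called at D10, and it was lower, where 2.45% of all genes were called lower. At D10, 5 were higher and 5 lower in both experiments, against 31.1% and 32.3% of all genes. IRF9, a subunit of the complex that binds ISREs, had a log2 fold change of -1.26 ± 0.56 (SE, adjusted p = 0.649).

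Interferon-stimulated genes were mostly lower at D10. Of 23 tested, 20 lay below D0 in each experiment and 1 lay above it in each, against 32.3% and 31.1% of all genes, and the median log2 fold change was -1.41. At D4, 20 of the 23 were also lower in both experiments, and at D7, 14 were, against 28.9% and 31.1% of all genes. The median log2 fold change on these days was -0.56 and -0.52. At D10 the median log2 change was -0.91 in experiment 1 and -1.93 in experiment 2. Of the 23, 22 had the lower value in experiment 2. The D10 library of experiment 2 is the one with the lowest fibroblast marker sum, 10120 CPM against 34700 CPM, and the part of this in the difference was not tested. EdgeR called 0 of them at D10, where it called 0.290% of all genes. With the replicate block 10 were called lower and 1 higher at D10, where 2.45% and 2.54% of all genes were called. IFIT1, an antiviral RNA-binding protein, was at 47.5 and 61.1 CPM at D0 and 11.6 and 5.67 CPM at D10, a log2 fold change of -2.65 ± 0.54 (SE, adjusted p = 0.0964 from edgeR, 0.00439 with the block). OAS2, which senses double-stranded RNA, had -2.002 ± 0.87 (SE, adjusted p = 0.623, 0.0302 with the block).

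NF-κB genes were mostly higher at D10. Of 13 tested subunits and feedback genes, 12 were higher at D10 in both experiments, against 31.1% of all genes. The median log2 fold change was 0.93. EdgeR called 1 of them at D10, NFKBIA, where 0.196% of all genes were called higher. The replicate block called 6, all higher, where 2.54% of all genes were called higher. NFKBIA, the inhibitor IκBα and itself a target of NF-κB, was at 31.8, 32.7, 50.7 and 108 CPM from D0 to D10 in experiment 1 and at 29, 27.1, 52.9 and 103 CPM in experiment 2. As for CXCL10, the D0 and D4 libraries overlapped and the D10 libraries were the highest, and its log2 fold change at D10 was 1.79 ± 0.20 (SE, adjusted p = 0.0225 from edgeR). TNFAIP3, the deubiquitinase A20, had 3.67 ± 0.88 (SE, adjusted p = 0.151, 0.00827 with the block), and NFKBIZ, an atypical IκB protein, had 2.69 ± 1.02 (SE, adjusted p = 0.498, 0.000806 with the block).

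The neutrophil-attracting CXC chemokines differed from CXCL10 in how the experiments compared. All 5 that were tested had the larger log2 change to D10 in experiment 2. CXCL10 changed by 4.56 in experiment 1 and 4.17 in experiment 2. Most of the 5 were near the floor at D0, so their log2 changes depend on the prior count of 2. At D0, CXCL1 had 3 and 2 counts and CXCL5 had 1 and 0. CXCL2, named after its values were seen, had 0 and 16, so its order between the experiments rests on that prior. CXCL8 (IL-8) was at 189 and 3007 CPM at D10 (log2 fold change 9.70, adjusted p = 0.0656 from edgeR), CXCL5 at 4.19 and 74.2 CPM, and CXCL1 at 28.9 and 90.2 CPM, whereas CXCL10 was at 45.0 and 27.4 CPM. EdgeR called CXCL1 and the replicate block called all 5 at D10, where 0.196% and 2.54% of all genes were called higher. CXCL1 and CXCL5 passed the filter on low counts only because of their D10 libraries. Being tested thus already required a high D10 level of them, and the count of calls is not independent of that level. The difference between the experiments was not tested, since each has 1 library per day.

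**Figure D4:**
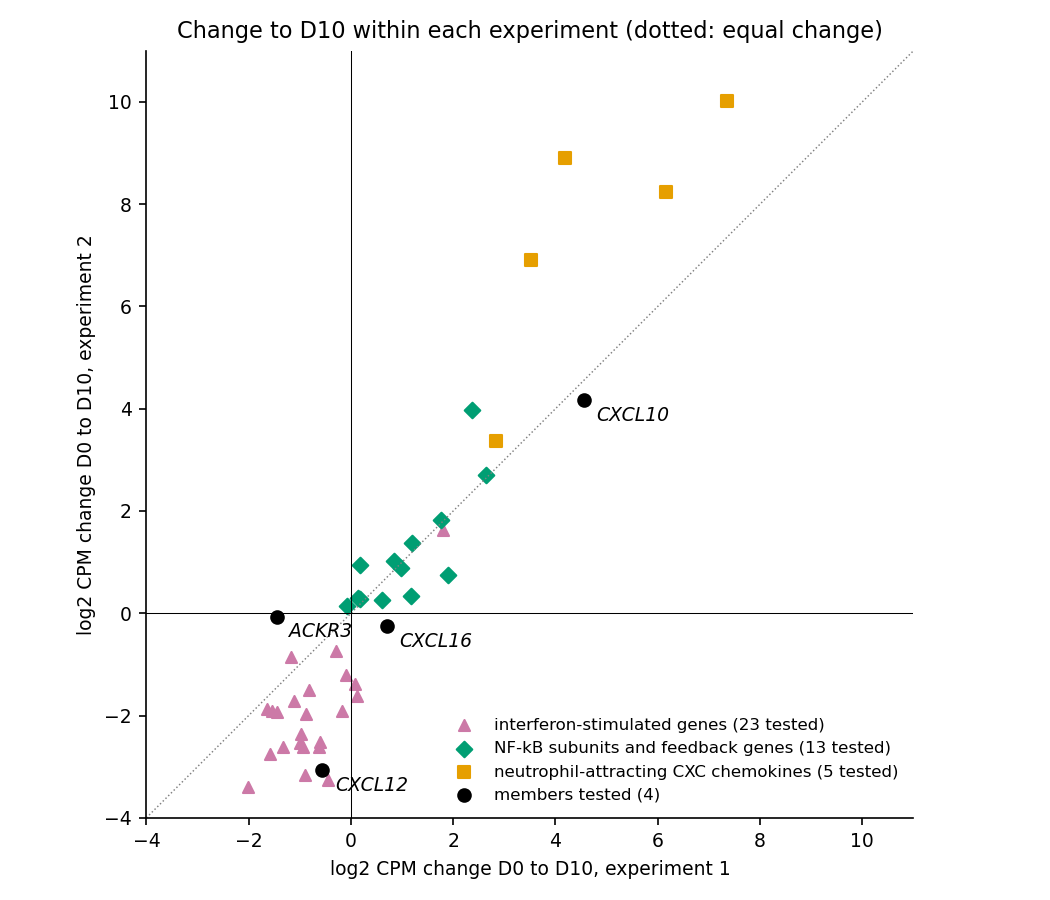
Log2 CPM change from D0 to D10 in experiment 1 (horizontal axis) and experiment 2 (vertical axis) for the 4 members tested (black circles), 23 interferon-stimulated genes (purple triangles), 13 NF-κB genes (green diamonds) and 5 neutrophil-attracting chemokines (orange squares), with equal change as a dotted line. CXCL10, at 4.56 and 4.17, lies just below that line, and the neutrophil-attracting chemokines lie above it. Most interferon-stimulated genes are below 0 on both axes. Values of genes with few counts at D0 depend on the prior count of 2.

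The genes most like each member were taken by Pearson's r of log2 CPM over the 8 libraries among genes with a mean of at least 1 CPM, as a measure of likeness with no test. For CXCL10 they were C3, the central complement component (r = 0.993), SETD3 (0.987) and RHBDD1 (0.987), out of 12790 genes compared. C3 was at 2.68, 2.95, 21.8 and 417 CPM from D0 to D10 in experiment 1 and at 2.91, 2.53, 13.1 and 215 CPM in experiment 2. Like CXCL10 it overlapped between D0 and D4 and was higher in experiment 1 than in experiment 2 at D7 and D10. Its log2 fold change at D10 was 6.82 (adjusted p = 0.0053 from edgeR). SETD3 was highest at D10 over a much narrower range, from 48.5 to 60.3 CPM. For CXCL12 they were PLEKHA6 (r = 0.977), the small GTPase gene RHOB (0.972) and the matrix gene FBLN1, fibulin-1 (0.968), and all 3 were lowest in D10 replicate 2. FBLN1 was at 256 and 240 CPM at D0 and at 172 and 98.2 CPM at D10. The libraries share experiments and day 0 controls, so these likenesses are not independent of one another.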

How the data were processed

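RNA-Seq of 8 libraries (4 groups of 2) was analysed. The file as deposited holds raw counts for each gene and, beside them, the authors' RPM values, which equal the counts scaled by the column total in 100% of cases (tolerance 0.006) and were not used further. Per the labels, poly(A) RNA was made into stranded libraries, and the submitters' processing notes name STAR 2.5, DESeq2 and GRCh38. The counting program and its strand setting are not given in the sources used here. The header DO was read as D0. Positions and exon lengths come from GENCODE 29, which holds 99.6% of the identifiers.

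Counts were filtered with edgeR's filterByExpr (minimum count 10), which left 13798 of 27696 genes, scaled with TMM and fitted by group over all 8 libraries with edgeR 4.0.16 (glmQLFit, glmQLFTest, R 4.3.3), with Benjamini-Hochberg adjustment and a threshold of 0.05. Log2 CPM used a prior count of 2, the floor was 3 counts, and intervals were exact at 95%. A gene's standard error is its coefficient over the root of F. Alternatives were DESeq2 1.42.0, DESeq2's size factors, other filters, the compared groups only, a stricter threshold, a replicate block and leaving out each library. The fits were tested on simulated counts. Across genes, the deviations of 2 libraries with the same number from the means of their groups had a Pearson correlation from 0.418 to 0.722 over the 6 pairs of groups, and the methods describe 2 independent experiments, so the numbers were taken to pair the libraries. The fit reported left this pairing out. Its common dispersion was 0.0792, and that of the fit with the replicate block was 0.0242. P-values measure only the spread between these libraries.

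The members, gene lists and tests were chosen with earlier results of these data known. Named genes are the members, genes of each list called on any day, the 2 with the largest absolute log2 fold change at D10 in each list, and the 3 genes most like a member. 1 motif and 1 gene that this rule takes in are not reported here. Figures were drawn with Python 3.11.15.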

Additional observations from a re-analysis of the deposited data

How the results depend on the processing

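The rise of CXCL10 at D10 had a log2 fold change between 4.14 and 4.84 over 15 alternatives and stayed past the threshold in 12 of them, with DESeq2 (adjusted p = 1.2e-15) and the replicate block (0.000324) among these. The number of members called at D10, 1 in the fit reported, was 0 with the compared groups only and 0 at an adjusted p under 0.01, and lay between 0 and 1 when each library was left out. It was 3 with the replicate block and no filter, an alternative chosen after seeing the data, in which 1 member was called at D4 and 1 at D7, and in which CXCL12 (adjusted p = 5.3e-05) and ACKR3 (0.00308) were called lower at D10. The replicate block with the filter called 1 member at D7, CXCL10, and changed no other call of a member.

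The number of genes called at D10, 40, was 379 with DESeq2, 371 with no filter, 20 with at least 10 counts in every library, 688 with the replicate block, 1513 with the block and no filter, 0 with the compared groups only and 2 at an adjusted p under 0.01, and between 0 and 155 when each library was left out. At D4 and D7, where it was 0, DESeq2 called 44 and 112 genes, no filter 21 and 93, the replicate block 38 and 172, and the block with no filter 513 and 813. Apart from the number of samples or genes in a fit, the cause of these differences was not tested. All 40 genes were among the calls of the replicate block.

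Direction turned in 7 cases, all of them values that passed no threshold and all when 1 library was left out, over which the ranges were as follows. At D4 CXCL10 lay between -0.25 and 0.10 (positive without D0 replicate 1), CXCL12 between -0.41 and 0.23 (positive without D4 replicate 1) and CXCL16 between -0.35 and 0.027 (positive without D0 replicate 2). At D7 CXCL12 lay between -1.17 and 0.35 (positive without D7 replicate 1) and ACKR3 between -1.50 and 0.30 (positive without D0 replicate 1). At D10 CXCL16 lay between -0.11 and 0.61 (negative without D10 replicate 1) and ACKR3 between -1.66 and 0.15 (positive without D0 replicate 1). The shift of interferon-type less homeostatic chemokines from D0 to D10 lay between 3.16 and 4.00 when 1 library was left out, which was added after seeing the data, and was 3.54 with a prior count of 0.5 and 3.59 with plain library totals. CXCL11, CXCL14 and CXCL16, with at most 19 counts in a library, are limited by depth.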

Other observations

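The 5 other chemokines examined, CXCL9, CXCL13, CXCL17, CX3CL1 and XCL2, had at most 12 counts in any library, and none passed the filter on low counts. CC chemokines were not examined. CXCL9, the third interferon-type ligand of CXCR3, had 1, 2, 1 and 1 counts from D0 to D10 in experiment 1 and 0, 0, 1 and 4 in experiment 2, so it is listed near 0 where CXCL10 had 569 and 348 counts. CX3CL1, a transmembrane chemokine, had 5, 8, 4 and 12 counts in experiment 1 and 6, 4, 6 and 0 in experiment 2. CXCL13, CXCL17 and XCL2 did not exceed 1 count in any library.

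The genes most like ACKR3 by Pearson's r over the 8 libraries were TCF7L1 (0.911), the calcium channel gene TRPV4 (0.908) and LINC02035 (0.907). All 3 had their highest value in D0 replicate 1, which was 34.6 CPM for TCF7L1 against 24.0 CPM in D0 replicate 2. Those most like CXCL16 were AMACR (0.957), FAM92A1P1 (0.920) and CISH, a feedback inhibitor of cytokine signalling (0.859), and all 3 were lowest in D7 replicate 1.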
